A study of Mus musculus with 13 samples.

Results

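The genes described here are 10 chemokine genes of the Ccl and Cxcl families, Ccl2, Ccl3, Ccl4, Ccl5, Ccl6, Ccl9, Ccl12, Cxcl10, Cxcl12 and Cxcl16, out of 55536 gene identifiers measured in mouse frontal cortex. They were taken by name, each symbol matching 1 Ensembl gene. The 4 groups were wild-type B6SJLF1/J mice at 6 months (4 libraries), 5XFAD mice at 6 months (3 libraries), wild-type B6SJLF1/J mice at 11 months (3 libraries) and 5XFAD mice at 11 months (3 libraries). 5XFAD mice express human transgenes with familial Alzheimer's disease mutations from the regulatory sequence of Thy1, a gene of neurons, and build up amyloid plaques, so the genotype comparison sets this line against the strain given for the controls. Whether the libraries of a group come from separate animals is not said, and the p-values then cover only the spread between libraries, part of which may be technical.

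Chemokines are small secreted or membrane-bound proteins that attract cells carrying matching G protein-coupled receptors. CC chemokines (Ccl) have adjacent cysteines near the amino end and act mainly on monocytes, macrophages and lymphocytes, while in CXC chemokines (Cxcl) another residue separates those cysteines. In the brain, microglia, the resident macrophages, can make inflammatory chemokines, whereas Cxcl12 is a homeostatic chemokine of vessels, meninges and some neurons. In whole tissue, more cells of a type and more RNA per cell cannot be told apart.

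Of the members, 8 lie on chromosome 11 (GRCm38, GENCODE M21). Ccl2 (82035571 to 82037453, plus strand) and Ccl12 (82101845 to 82103400, plus) stand in a cluster of 6 Ccl genes that spans 270.1 kb. Ccl5 (83525778 to 83530518, minus), Ccl9 (83572919 to 83578636, minus), Ccl6 (83587882 to 83593087, minus), Ccl3 (83647844 to 83649355, minus) and Ccl4 (83662584 to 83664683, plus) form a second cluster of 5 Ccl genes over 138.9 kb. Cxcl16 (70453983 to 70459984, minus) lies elsewhere on chromosome 11, Cxcl10 on chromosome 5 (92346638 to 92348889, minus) and Cxcl12 on chromosome 6 (117168535 to 117181367, plus). All 10 are protein-coding.

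RefSeq promoter windows of GRCm38.p6 were at hand for 6 members, Ccl3, Ccl6, Ccl9, Ccl12, Cxcl10 and Cxcl12. The 250 bases before the RefSeq start are printed for 4 of them. Cxcl10 and Ccl9 hold matches to motifs of inducible transcription, Ccl3 had the largest fold changes described below, and Ccl6 is the cluster neighbour of Ccl9 with which it is compared. They are written 5′ to 3′ on the gene's strand, with the last base next to the start. Capitals mark matches to the NF-kB consensus or to the interferon-stimulated response element (TTTC, any pair of bases, then TTTC), searched on both strands. The windows are Cxcl10 at chr5:92348890-92349139, Ccl3 at chr11:83649379-83649628, Ccl6 at chr11:83593088-83593337 and Ccl9 at chr11:83578637-83578886, all on the minus strand.
Cxcl10: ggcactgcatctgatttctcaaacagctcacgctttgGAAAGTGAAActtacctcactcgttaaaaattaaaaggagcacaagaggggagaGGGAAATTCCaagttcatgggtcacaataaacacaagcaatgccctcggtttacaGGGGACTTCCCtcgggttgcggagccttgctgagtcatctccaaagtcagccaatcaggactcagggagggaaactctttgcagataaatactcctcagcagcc
Ccl3: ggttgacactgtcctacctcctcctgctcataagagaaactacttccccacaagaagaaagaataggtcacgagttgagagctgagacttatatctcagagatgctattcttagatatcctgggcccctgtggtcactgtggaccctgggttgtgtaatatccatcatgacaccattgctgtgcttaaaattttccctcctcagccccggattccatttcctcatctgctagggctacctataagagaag
Ccl6: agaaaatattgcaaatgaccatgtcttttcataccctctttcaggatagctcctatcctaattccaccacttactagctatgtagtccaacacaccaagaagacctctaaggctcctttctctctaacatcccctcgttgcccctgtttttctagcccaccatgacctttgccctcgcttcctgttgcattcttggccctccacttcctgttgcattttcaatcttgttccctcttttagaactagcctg
Ccl9: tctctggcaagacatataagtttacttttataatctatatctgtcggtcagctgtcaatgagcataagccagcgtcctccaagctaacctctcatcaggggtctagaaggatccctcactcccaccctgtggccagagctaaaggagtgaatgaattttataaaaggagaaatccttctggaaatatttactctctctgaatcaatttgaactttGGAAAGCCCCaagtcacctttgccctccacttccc

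NF-kB is a transcription factor family activated by inflammatory signals, and the interferon-stimulated response element is bound by factors activated by interferons. In windows of 300 bases, which reach past the start, Cxcl10 held NF-kB matches beginning at -159, -104 and -103, of which the last pair overlap, and an interferon-stimulated response element at -213 on the opposite strand. Ccl9 held 1 NF-kB match, at -35 on the opposite strand. Of all 32851 promoter windows, 8.46% held an NF-kB match and 3.44% the interferon-stimulated response element. AP-1 (TGANTCA) matched in Cxcl10 at -74 and in Ccl9 at -53, against 7.81% of all windows, and TATAAA in Ccl12 at -31 and in Ccl9 at -92, against 8.32%. These letters were not found in the windows of Ccl3, Ccl6 and Cxcl12. Among the 15 pairs of member windows, Ccl6 and Ccl9 had the best local alignment, 67 aligned bases of which 58 were identical (86.6%), from -59 to 14 in Ccl6 and from -18 to 48 in Ccl9. These are descriptions of the letters, and no binding was measured.

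Levels are given as CPM, the count scaled by the effective (TMM) library size. Totals ran from 23618296 to 26615776 counts per library. At 6 months the mitochondrial share of counts ranged from 8.38 to 8.88% among wild-type and from 9.94 to 9.99% among 5XFAD libraries, with no overlap, and 7.89 to 11.43% and 10.1 to 11.3% at 11 months; its part in the differences at 6 months was not tested. The depth limits the weakest members: Ccl2 had 0 to 7 counts in any library and was the 1 member that did not pass the low-count filter, and a count of 0 allows up to 3 counts, which is 0.116 to 0.127 CPM (counting error only). The other 9 members were tested. A gene with enough counts in 5XFAD libraries only passes such a filter through them, so counts of changed members describe these genes and carry no weight as a test. Counts were whole numbers in all 13 libraries for 9 members. The exception, Cxcl16, shares 552 exonic bases with Zmynd15 on the other strand (4 to 28.6 counts), and Cxcl10 shares 133 with Art3 (51 to 105 counts); whether strand was used in counting is not given in the sources used here, so reads on these shared bases are uncertain. Sex was uneven as read from sex-linked genes: all 3 5XFAD libraries at 6 months were male, against 2 of 4 wild-type libraries, and at 11 months 1 of 3 5XFAD and 2 of 3 wild-type libraries were male. Wild-type replicate 1 at 6 months stood apart by its choroid plexus markers, with 2983 summed CPM against 5.49 to 38.3 in the other 12 libraries.

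The first comparison asked which of these genes differ between 5XFAD and wild-type cortex at each age. At 6 months Ccl3, Ccl4, Ccl6 and Cxcl16 rose in 5XFAD, and at 11 months these 4 and Cxcl10 rose, with edgeR's quasi-likelihood test and Benjamini-Hochberg adjustment over all 17483 genes tested. No member fell, including at an unadjusted p under 0.05 and with DESeq2. Thus 4 of 9 tested members were higher at 6 months, where 1.3% of all genes were, and 5 of 9 at 11 months, where 3.8% were. The median log2 fold change of the 9 tested members was 1.44 at 6 months and 3.17 at 11 months, against -0.01 and -0.03 over all genes. Every 5XFAD library lay above every wild-type library for 6 of the 9 tested members at 6 months, against 6.97% of all tested genes, and for 7 of 9 at 11 months, against 10.4%. Across all genes the calls were 228 higher and 3 lower at 6 months and 665 higher and 88 lower at 11 months; on the log2(TPM + 1) scale, which shifted the median gene to -0.12 and -0.13, they were 129 higher and 39 lower and 457 higher and 359 lower.

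**Figure D1:**
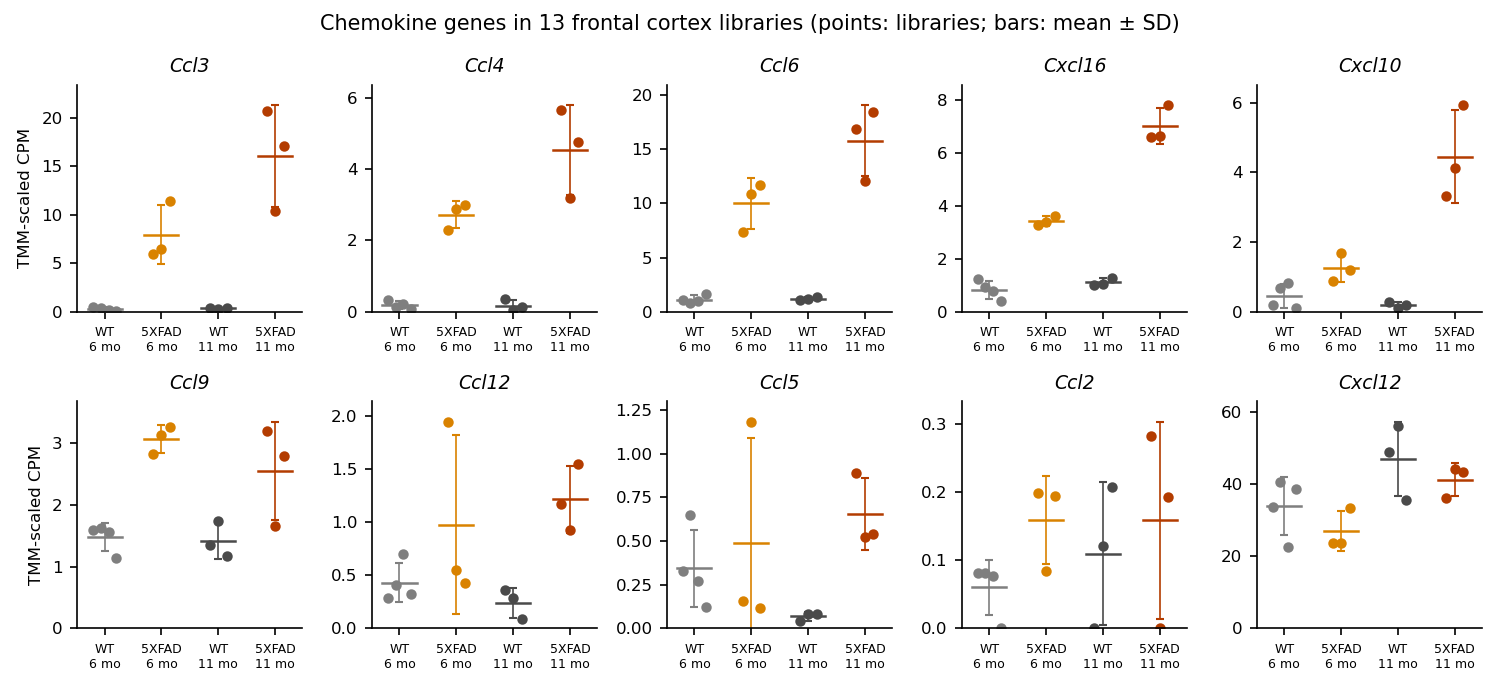
TMM-scaled CPM of the 10 chemokine genes, 1 panel each with its own vertical axis starting at 0; points are libraries, horizontal lines group means and vertical bars SD, cut at 0 where they would pass below it. Wild-type libraries are at or near the bottom of the Ccl3, Ccl4, Ccl6, Cxcl16 and Cxcl10 panels, while Cxcl12 is between 22.6 and 56.3 CPM in every library.

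Ccl3 and Ccl4 (macrophage inflammatory proteins 1 alpha and 1 beta) attract monocytes, macrophages and T cells, and Ccl3 is a ligand of Ccr1. At 6 months Ccl3 stood at 0.491, 0.366, 0.194 and 0.0817 CPM in the wild-type libraries and at 5.92, 6.47 and 11.5 CPM in 5XFAD. At 11 months it stood at 0.438, 0.242 and 0.416 CPM in wild type and 20.7, 10.4 and 17.1 CPM in 5XFAD. The lowest 5XFAD library was far above the highest wild-type library at both ages. The log2 fold change was 4.79 ± 0.42 (SE; edgeR adjusted p = 3.3e-05) at 6 months and 5.44 ± 0.45 (edgeR adjusted p = 8.59e-06) at 11 months. These were the largest folds among the members at both ages, although the wild-type libraries held few reads, which leaves the size of the fold imprecise.

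Ccl4 was lower than Ccl3 in every 5XFAD library. At 6 months it stood at 0.328, 0.122, 0.233 and 0.0817 CPM in wild type and 2.31, 2.88 and 2.99 CPM in 5XFAD. In the older mice its level was 0.359, 0.0404 and 0.125 CPM in wild type and 5.66, 3.19 and 4.76 CPM in 5XFAD. The groups did not overlap at either age. On the log2 scale Ccl4 differed by 3.798 ± 0.45 (edgeR adjusted p = 0.000293) and 4.65 ± 0.51 (edgeR adjusted p = 5.42e-05). Wild type held only 9, 1 and 3 counts at 11 months, and the value of that age ran from 3.23 to 5.7 over the alternatives, so the size of this fold is imprecise too. Per transcript length, in the deposited TPM, the ratio of Ccl3 to Ccl4 was 1.80 to 3.07 in the 5XFAD libraries at 6 months and 2.60 to 2.92 at 11 months, against 0.658 to 2.40 and 0.976 to 4.62 in wild type, so the ranges overlapped.

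Ccl6 and Ccl9 are CC chemokines of rodents that act through Ccr1. At 6 months Ccl6 stood at 1.06, 0.772, 0.970 and 1.68 CPM in wild type and 7.35, 10.9 and 11.7 CPM in 5XFAD, and at 11 months at 1.08, 1.21 and 1.33 CPM and 16.8, 12.1 and 18.4 CPM. All 6 5XFAD libraries exceeded all 7 wild-type libraries. The log2 fold changes were 3.15 ± 0.25 (edgeR adjusted p = 8.7e-06) at 6 months and 3.70 ± 0.28 (edgeR adjusted p = 2.46e-06) at 11 months, the smallest adjusted p of any member at each age.

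Ccl9, the next gene along the chromosome, did not pass the threshold. At 6 months it stood at 1.597, 1.62, 1.55 and 1.14 CPM in wild type and 2.82, 3.13 and 3.26 CPM in 5XFAD. The 11-month levels of Ccl9 were 1.35, 1.74 and 1.17 CPM in wild type and 3.196, 1.65 and 2.79 CPM in 5XFAD. The groups did not overlap at 6 months and overlapped at 11 months, where 5XFAD replicate 2 lay within the wild-type range. The log2 fold change was 1.05 ± 0.24 (edgeR adjusted p = 0.0532) at 6 months and 0.84 ± 0.27 (edgeR adjusted p = 0.110) at 11 months. The 6-month value passed in 4 of 16 alternatives, with DESeq2 (adjusted p = 0.00669), with a stricter expression filter (0.0476), with only the compared groups fitted (0.0293) and with sex as a covariate (0.0414), and the 11-month value passed without 5XFAD replicate 2 (log2 fold change 1.07, edgeR adjusted p = 0.024). In CPM the ratio of Ccl6 to Ccl9 ranged at 6 months from 0.475 to 1.46 among wild-type libraries and from 2.61 to 3.60 among 5XFAD libraries, and 0.698 to 1.14 and 5.27 to 7.32 at 11 months. Both genes thus started from like read levels in wild type and stood apart in every 5XFAD library.

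Ccl5 (RANTES), a ligand of Ccr1 and Ccr3 made by T cells and many activated cells, was sparse. At 6 months it stood at 0.328, 0.650, 0.272 and 0.122 CPM in wild type and 0.159, 1.18 and 0.117 CPM in 5XFAD. The older libraries held 0.0398, 0.0808 and 0.0833 CPM in wild type and 0.890, 0.524 and 0.542 CPM in 5XFAD. At 6 months 1 library, 5XFAD replicate 2, was above all others of both groups, and the log2 fold change of 0.48 ± 0.71 (edgeR adjusted p = 0.897) turned to -1.28 without it. At 11 months the groups did not overlap and the log2 fold change was 3.17 ± 0.96 (edgeR adjusted p = 0.0801). The wild-type libraries at 11 months held 1, 2 and 2 counts, at or under the floor of 3 counts in each, so the size of this fold is not well determined. It passed the threshold in 4 of 14 alternatives, among them DESeq2 (adjusted p = 0.0292).

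**Figure D2:**
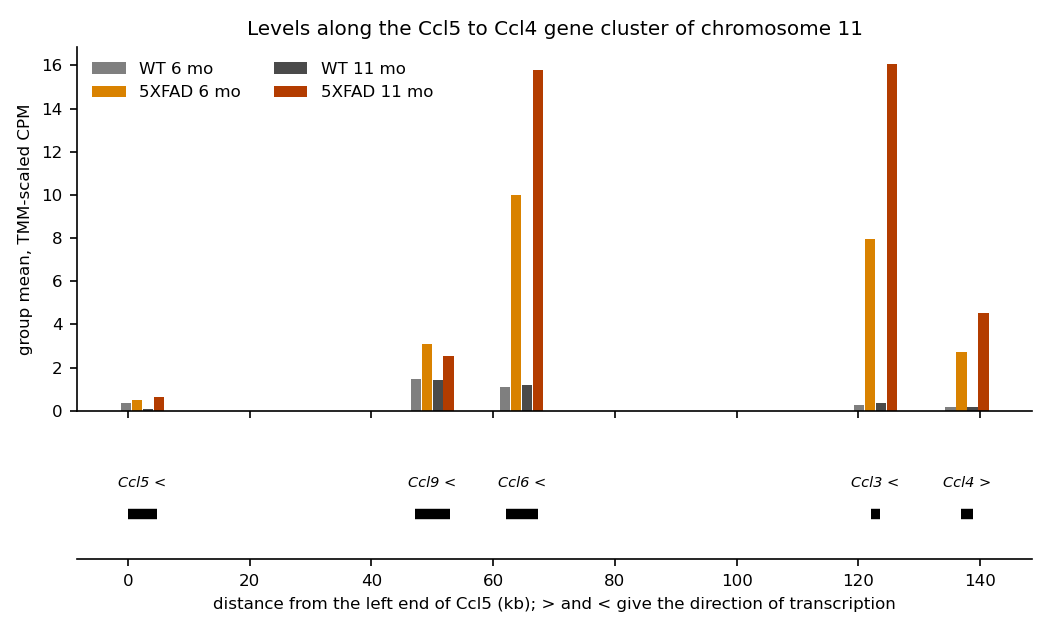
Group means of TMM-scaled CPM (bars, upper panel, axis from 0) for the 5 genes of the Ccl5 to Ccl4 cluster, placed by distance in kb from the left end of Ccl5, with the gene bodies to scale in the lower panel. The 5XFAD bars of Ccl6 and Ccl3 are the tallest, with Ccl9 between 1.42 and 3.07 CPM beside Ccl6.

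Of the 5 genes of this cluster, Ccl3, Ccl6 and Ccl4 passed the threshold at 11 months and Ccl9 and Ccl5 did not. Differences between these genes were not tested. Of the other annotated genes within the cluster, E230016K23Rik stood below 0.1 CPM in every group and Rpl9-ps1 had no counts. In the first cluster no gene other than Ccl12 reached 1 CPM in a group.

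Ccl2 (MCP-1) and Ccl12 (MCP-5) are ligands of Ccr2, the receptor on inflammatory monocytes. Ccl2 had 2, 2, 2 and 0 counts in wild type and 5, 2 and 5 in 5XFAD at 6 months, and 0, 3 and 5 and 7, 0 and 5 at 11 months. A difference was not detectable at this depth. At 6 months Ccl12 stood at 0.287, 0.406, 0.698 and 0.327 CPM in wild type and 1.95, 0.550 and 0.427 CPM in 5XFAD, where replicate 1 alone was above the wild-type range. At 11 months it stood at 0.359, 0.283 and 0.0833 CPM in wild type and 1.17, 0.927 and 1.55 CPM in 5XFAD, with no overlap. The log2 fold change was 1.17 ± 0.54 (edgeR adjusted p = 0.544) and 2.30 ± 0.63 (edgeR adjusted p = 0.0555). The 11-month value passed in 4 of 15 alternatives, with DESeq2 (adjusted p = 0.0138), without a filter on low counts (0.0245) and on both log2 TPM scales (0.0406 and 0.0396).

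Cxcl10 (IP-10) is induced by interferons and attracts cells that carry Cxcr3, mainly activated T and NK cells. At 6 months it stood at 0.205, 0.691, 0.815 and 0.122 CPM in wild type and 0.874, 1.69 and 1.21 CPM in 5XFAD. Its 11-month levels were 0.279, 0.121 and 0.208 CPM in wild type and 3.32, 4.11 and 5.93 CPM in 5XFAD. The lowest 5XFAD library at 6 months was just above the highest wild-type library, while at 11 months the groups stood far apart. The log2 fold change was 1.44 ± 0.49 (edgeR adjusted p = 0.299) at 6 months and 4.42 ± 0.58 (edgeR adjusted p = 0.000296) at 11 months. The difference between these folds was 2.99 ± 0.77 on the log2 scale, with an unadjusted p of 0.0017 and an adjusted p of 0.636 over all genes (edgeR), so it did not pass the threshold.

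Cxcl16 is made as a membrane-bound protein that binds oxidised lipoproteins and, once shed, attracts cells with Cxcr6. At 6 months it stood at 1.23, 0.934, 0.776 and 0.408 CPM in wild type and 3.26, 3.38 and 3.61 CPM in 5XFAD. At 11 months it stood at 0.996, 1.05 and 1.29 CPM in wild type and 6.59, 6.61 and 7.79 CPM in 5XFAD. The 5XFAD libraries of each age lay close together and apart from wild type. The log2 fold changes were 2.02 ± 0.26 (edgeR adjusted p = 0.00064) and 2.65 ± 0.28 (edgeR adjusted p = 4.3e-05).

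Cxcl12 (SDF-1) binds Cxcr4 and the scavenging receptor Ackr3. At 6 months it stood at 33.7, 40.6, 22.6 and 38.6 CPM in wild type and 23.8, 23.6 and 33.3 CPM in 5XFAD. In the 11-month libraries it was at 49.05, 56.3 and 35.8 CPM in wild type and 36.1, 44.4 and 43.5 CPM in 5XFAD. The groups overlapped at both ages. The log2 fold changes were -0.33 ± 0.21 (edgeR adjusted p = 0.708) and -0.19 ± 0.22 (edgeR adjusted p = 0.751), and neither passed the test.

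**Figure D3:**
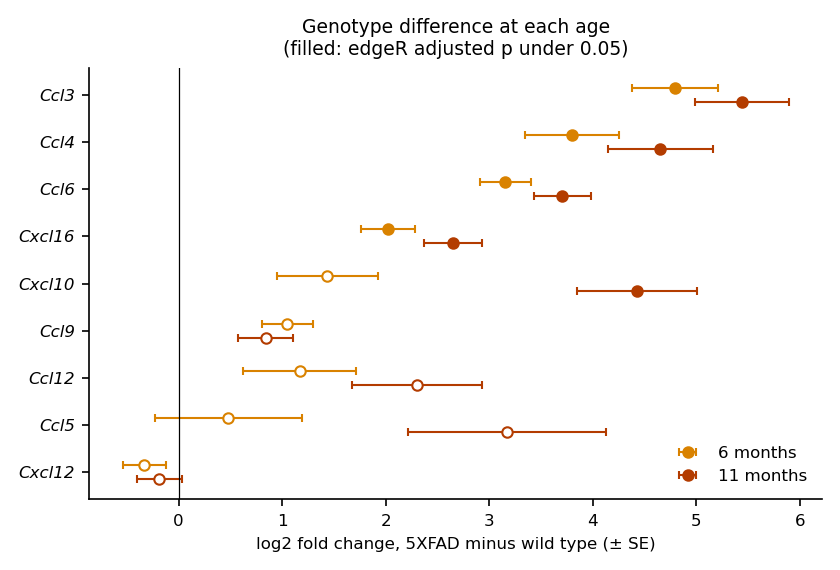
Log2 fold change of 5XFAD against wild type (horizontal axis, ± SE) for the 9 tested chemokine genes at 6 and 11 months; filled points have an edgeR adjusted p under 0.05. Ccl3, Ccl4, Ccl6 and Cxcl16 are filled at both ages and Cxcl10 at 11 months, while Cxcl12 lies at -0.33 and -0.19.

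The next comparison was between the ages within each genotype. In wild type no member passed the threshold between 6 and 11 months with edgeR or DESeq2, where 3.71% of all genes tested did in either direction; 2 members had an unadjusted p under 0.05, Ccl5 with a log2 fold change of -2.26 ± 0.98 (edgeR adjusted p = 0.168) and Cxcl12 with 0.47 ± 0.20 (edgeR adjusted p = 0.181). In 5XFAD Cxcl10 rose with a log2 fold change of 1.82 ± 0.47 (edgeR adjusted p = 0.0347) and Cxcl16 with 1.03 ± 0.26 (edgeR adjusted p = 0.0295), where 4.84% of all genes tested were higher at 11 months. The 3 libraries at 11 months were above the 3 at 6 months for both genes, a pattern whose share over all genes was not counted. Neither call was kept with sex as a covariate (edgeR adjusted p = 0.0949 for Cxcl10 and 0.103 for Cxcl16) or on the log2(TPM + 0.1) scale (0.0994 and 0.226 in limma). Without any 1 of the 6 libraries both calls were lost too, with edgeR adjusted p values from 0.0569 to 0.163. All 3 5XFAD libraries at 6 months were male and 1 of 3 at 11 months was, so sex moved with age here.

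Ccl3 had a log2 fold change of 1.01 ± 0.34 between the ages in 5XFAD (edgeR adjusted p = 0.0837), Ccl6 0.66 ± 0.23 (0.102), Ccl4 0.74 ± 0.38 (0.254) and Cxcl12 0.62 ± 0.22 (0.108). The libraries of the ages did not overlap for Ccl4, Ccl6 and Cxcl12 and overlapped for Ccl3. How many of all genes were without overlap between the ages was not counted, so this is a description only. Of the 17483 genes tested, 4270 had an unadjusted edgeR p under 0.05 between the ages in 5XFAD. With DESeq2 Ccl3 (adjusted p = 0.0335) and Cxcl12 (0.044) also passed. Ccl9 (-0.27 ± 0.26), Ccl5 (0.44 ± 0.72) and Ccl12 (0.32 ± 0.54) gave adjusted p values of 0.555, 0.748 and 0.760.

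A test of whether the genotype difference itself changed with age found no member past the threshold with edgeR or DESeq2, where 0.00572% of all genes tested passed. An unadjusted p under 0.05 was seen for 2 members. These were Cxcl10, as given above, and Ccl5, with 2.69 ± 1.23 on the log2 scale (edgeR unadjusted p = 0.0406). That Cxcl10 passed at 11 months and not at 6 months is therefore not shown to be a difference between the ages.

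Levels of the genes can be set against each other in the deposited TPM, which are per transcript length. In wild type Cxcl12 was the highest member, at 21.1 ± 7.17 TPM (SD, n = 4) at 6 months and 22.7 ± 5.33 TPM (n = 3) at 11 months, and none of the others exceeded 2 TPM in the mean. Next came Ccl12 (1.98 ± 0.851), Ccl9 (1.92 ± 1.27), Ccl6 (1.72 ± 0.370) and Ccl5 (1.62 ± 1.07 TPM) at 6 months, whose ranges overlapped from each to the next. Then followed Cxcl10 (0.893 ± 0.472), Ccl3 (0.738 ± 0.476), Cxcl16 (0.713 ± 0.415) and Ccl4 (0.623 ± 0.358 TPM), also with overlap between neighbours, and Ccl2 (0.135 ± 0.0915 TPM) was below all of them. At 11 months no neighbours below Cxcl12 in the wild-type order were separated by their ranges.

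In 5XFAD the order was different. At 6 months Ccl3 (18.7 ± 7.07 TPM, n = 3), Cxcl12 (15.96 ± 4.01 TPM) and Ccl6 (13.5 ± 2.91 TPM) overlapped in their ranges and stood above Ccl4 (8.003 ± 1.08 TPM). At 11 months Ccl3 (38.9 ± 12.9 TPM, n = 3) was above Ccl6 (20.03 ± 2.85 TPM) and Cxcl12 (19.9 ± 1.07 TPM) without overlap, followed by Ccl4 (13.8 ± 3.88 TPM), Cxcl10 (6.58 ± 1.82 TPM) and Cxcl16 (5.63 ± 0.733 TPM). Ccl2 was last in all 4 groups. TPM levels of Ccl6, Ccl9, Cxcl10, Cxcl12 and Cxcl16 also move with the transcript length that RSEM assigned in each library. For Ccl9 this was 1297, 1466 and 817 bases in the 5XFAD libraries at 11 months and 3006, 871 and 2748 bases in wild type of that age. For Cxcl12 it was 2834, 3561 and 3106 bases in wild type at 11 months. Replicate 2 there had 56.3 CPM and 22.3 TPM of Cxcl12, against 49.05 CPM and 28.2 TPM in replicate 1.

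Summed over the 10 genes, the level was 31.5 ± 6.76 TPM in wild type and 70.1 ± 11.2 TPM in 5XFAD at 6 months, and 30.9 ± 5.75 and 117 ± 21.8 TPM at 11 months. Cxcl12 made up 65.8 ± 11.4% of that sum in wild type and 22.6 ± 2.71% in 5XFAD at 6 months, and 72.8 ± 3.83% and 17.5 ± 4.42% at 11 months. Ccl3 went from 2.35 ± 1.35% to 26.1 ± 5.51% at 6 months and from 3.25 ± 1.27% to 32.6 ± 5.47% at 11 months. The share of Ccl6 was 5.62 ± 1.38% and 19.3 ± 3.52% at 6 months, and 6.12 ± 2.78% and 17.2 ± 0.865% at 11 months. Among these 10 genes Cxcl12 thus had the largest mean share in wild-type cortex and Ccl3 in 5XFAD cortex; other ligand genes of both families were not part of the sum.

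Microglial markers moved with these genes. Of 14 marker genes of microglia, 9 rose at 6 months, where 1.3% of all genes did, and 13 at 11 months, where 3.8% did. None was at 0, and their summed level ranged from 376.6 to 384.9 CPM in wild type and from 702.3 to 758.1 CPM in 5XFAD at 6 months, and 392.6 to 670.6 CPM and 1191 to 1627 CPM at 11 months. The members were therefore also expressed as a log2 ratio to the geometric mean of those markers, which was 20.97 ± 0.216, 38.03 ± 1.86, 28.9 ± 7.02 and 66.39 ± 12.02 CPM in the 4 groups in the same order. On this scale Ccl3 was still higher in 5XFAD by 3.86 at 6 months and 4.04 at 11 months, Ccl4 by 2.78 and 3.37, Ccl6 by 2.27 and 2.42 and Cxcl16 by 1.203 and 1.39, with no overlap between the groups. Cxcl10 differed by 0.77 at 6 months, with overlap, and by 2.95 at 11 months, without.

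Ccl9 differed by 0.18 at 6 months and -0.43 at 11 months relative to the markers, with overlap at both ages. Cxcl12, which is not mainly a microglial gene, was lower on this scale by -1.17 and -1.38, with no overlap, while its own level had not passed the test. Ccl12 differed by 0.01 and 1.02 and Ccl2 by 0.12 and -0.92, all with overlap, and Ccl5 by -0.85 with overlap and 1.34 without. In an exact two-sided permutation test the smallest p that 4 against 3 libraries allow is 0.0571, and 3 against 3 allow 0.1. Every comparison without overlap reached that smallest p, and the adjusted p over the 20 comparisons was 0.167 for each.

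**Figure D4:**
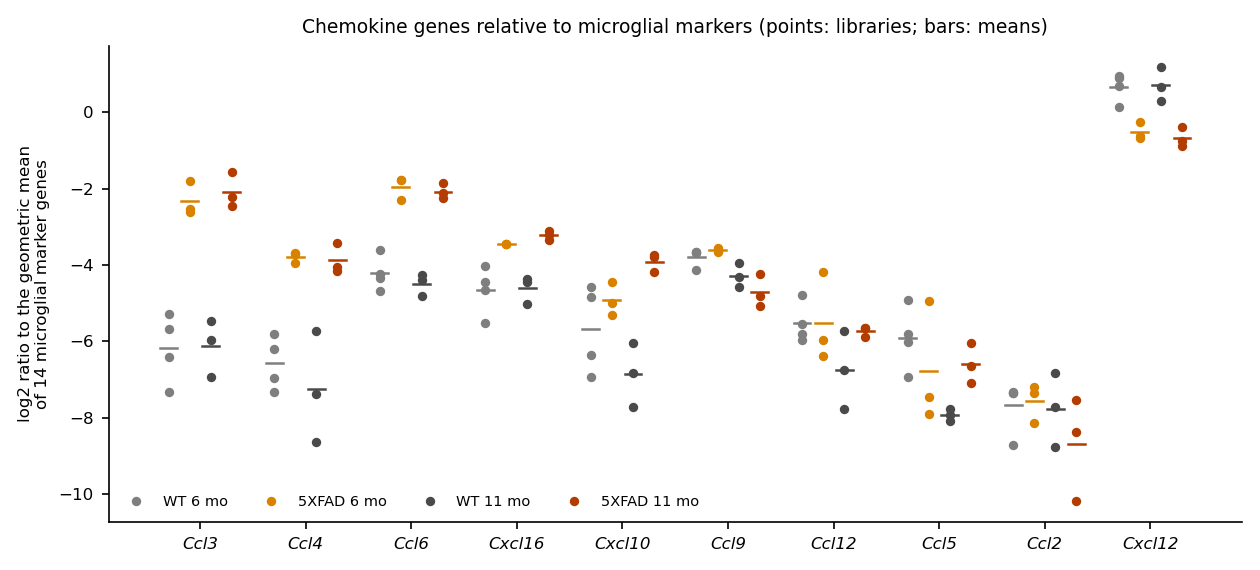
Log2 ratio of each chemokine gene to the geometric mean of 14 microglial marker genes (vertical axis) in the 4 groups; points are libraries and short lines means. Ccl3, Ccl4, Ccl6 and Cxcl16 are higher in 5XFAD than in wild type at both ages, Ccl9 overlaps, and Cxcl12 is lower in 5XFAD.

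Markers of other cells that could carry these genes were examined as well. Among T and NK cell markers Nkg7 had 0 counts in all 7 wild-type libraries and 1, 1 and 4 counts in 5XFAD at 6 months and 9, 7 and 8 at 11 months. Cd3e had 13, 8 and 4 counts in 5XFAD at 11 months against 0, 1 and 2 in wild type, and Cd8a 11, 13 and 5 against 0, 1 and 1. These were below the filter. Of the 4 T and NK markers that passed it 1 rose at 11 months, where 3.8% of all genes did. This was Cd5, from a mean of 0.0814 to 0.742 CPM (log2 fold change 3.11 ± 0.66, edgeR adjusted p = 0.0105). Cd5 was this sparse in wild type and had a mean of 0.190 CPM in 5XFAD at 6 months, so this count carries no weight as a test. Cd4 (-0.69 ± 0.95) and Trbc2 (-0.05 ± 0.70) did not pass (edgeR adjusted p = 0.793 and 0.986), and at 6 months, where 1.3% of all genes rose, none of the 4 did. The summed level of the 15 T and NK markers, of which Cd4 gave 57.4%, did not separate the genotypes. In wild type and 5XFAD it was 52.2 to 91.4 and 40.14 to 73.02 CPM at 6 months, and 14.3 to 44.6 and 15.8 to 34.1 CPM at 11 months. In 5XFAD at 11 months Cd4 had a mean of 11.1 and Trbc2 of 11.9 CPM, against 0.335 CPM for Cd3e. Changes of weak markers therefore hardly show in this sum. Cd3d, Gzmb, Ncr1 and Klrb1c were, like Nkg7, at 0 in every wild-type library. Their 5XFAD means were 0.027, 0.0282, 0.0141 and 0.135 CPM at 6 months and 0.132, 0.0936, 0.0135 and 0.119 CPM at 11 months. These means lie near or under the floor of 3 counts, which a count of 0 also allows. Like Ccl5 and Cxcl10, the counts of Nkg7, Cd3e and Cd8a were higher in every 5XFAD library than in any wild-type library at 11 months. The part of such cells in the Ccl5 and Cxcl10 values was not tested.

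Monocyte markers summed to 34.4 to 38.3, 34.52 to 39.99, 52.8 to 72.3 and 62.5 to 66.8 CPM in the same order, and border macrophage markers to 9.02 to 14.7, 8.76 to 11.2, 18.01 to 26.86 and 17.3 to 19.5 CPM. The 5XFAD and wild-type ranges overlapped at each age for both lists. Fn1 gave 53.3% of the monocyte sum and Stab1 80.0% of the border macrophage sum, so changes of weak markers hardly show in them. In the lists 4 of 8 and 6 of 9 markers passed the filter. Of these, S100a4 and Ccr2 of the monocyte list rose at 11 months and no other did at either age. Among all genes 1.3% rose at 6 months and 3.8% at 11 months. Ccr2 passed the filter only through 5XFAD libraries at 11 months, so this count carries no weight as a test. The 10 neutrophil markers, with 1 passing the filter, summed to 0.328 to 0.940 and 0.804 to 2.74 CPM at 6 months and, with no overlap, to 0.323 to 0.638 and 0.659 to 5.08 CPM at 11 months, and the defining marker Ly6g had at most 1 count in a library. Endothelial markers summed to 140.4 to 178.9 and 125.5 to 138.2 CPM at 6 months and 212.5 to 342 and 192.8 to 237.6 CPM at 11 months. The genotypes did not overlap at 6 months. The endothelial sums were higher at 11 months in both genotypes, as was the mean of Cxcl12, and their part in the Cxcl12 values was not tested.

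Astrocyte markers moved with genotype as well. The 8 markers summed to 2836 to 2922 CPM in wild type and 3401 to 3775 CPM in 5XFAD at 6 months, with no overlap, and to 3269 to 5344 and 5184 to 6226 CPM at 11 months, with overlap. Gfap, the filament protein of reactive astrocytes, rose at both ages (2.55 ± 0.26 and 3.49 ± 0.30 on the log2 scale, edgeR adjusted p = 0.000189 and 1.89e-05). The water channel gene Aqp4 rose at 11 months (0.98 ± 0.18, edgeR adjusted p = 0.00458), and the other 6 did not pass at either age. The share of all genes that rose was 1.3% at 6 months and 3.8% at 11 months. The part of astrocytes in the chemokine values was not tested.

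The receptors of these ligands were tested alongside. Of 20 chemokine receptor genes 5 passed the filter, of which 1 rose at 6 months, where 1.3% of all genes did, and 3 at 11 months, where 3.8% did. Ccr2, among the latter, passed the low-count filter only through 5XFAD libraries at 11 months, so the count of 3 carries no weight as a test. Ccr1, a receptor of Ccl3, Ccl5, Ccl6 and Ccl9, had 0 to 5 counts in any library and was not tested.

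Ccr2, the receptor of Ccl2 and Ccl12, had 3, 5 and 0 counts in wild type and 15, 13 and 21 counts in 5XFAD at 11 months. It rose there with a log2 fold change of 2.53 ± 0.67 (edgeR adjusted p = 0.0428), and at 6 months, with 2, 2, 5 and 1 and 3, 6 and 5 counts, it did not pass (0.88 ± 0.72, edgeR adjusted p = 0.793). Cxcr4, the receptor of Cxcl12, stood at 1.06, 1.42, 0.543 and 0.653 CPM in wild type and 1.35, 0.804 and 1.55 CPM in 5XFAD at 6 months, and at 1.08, 0.929 and 1.04 and 2.75, 2.66 and 2.44 CPM at 11 months. It rose at 11 months (1.36 ± 0.34, edgeR adjusted p = 0.0341) and not at 6 months (0.43 ± 0.33, edgeR adjusted p = 0.774). Both calls at 11 months are fragile. That of Ccr2 was lost in 8 of 12 alternatives and that of Cxcr4 in 7 of 15, including every removal of a library except, for Ccr2, that of wild-type replicate 2, with adjusted p values up to 0.192 and 0.110.

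Ackr3, the other receptor of Cxcl12, stood at 5.24 to 11.3 CPM in wild type and 6.24 to 7.15 CPM in 5XFAD at 6 months, and at 6.30 to 9.62 and 5.83 to 6.895 CPM at 11 months. Its log2 fold changes were -0.31 ± 0.22 and -0.33 ± 0.23 (edgeR adjusted p = 0.748 and 0.560). Cxcr3, the receptor of Cxcl10, had 0, 0, 0 and 0 counts in wild type and 1, 2 and 1 in 5XFAD at 6 months, and 1, 0 and 3 and 10, 8 and 11 at 11 months. Cxcr6, the receptor of Cxcl16, had 1, 1, 0 and 1 and 5, 1 and 2 counts at 6 months and 2, 0 and 0 and 4, 6 and 9 at 11 months. Both were below the filter and were not tested, and for both the 5XFAD libraries at 11 months were above the wild-type libraries of that age. A count of 0 allows up to 3 counts in a library, so the values at 6 months cannot separate the groups at this depth.

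**Figure D5:**
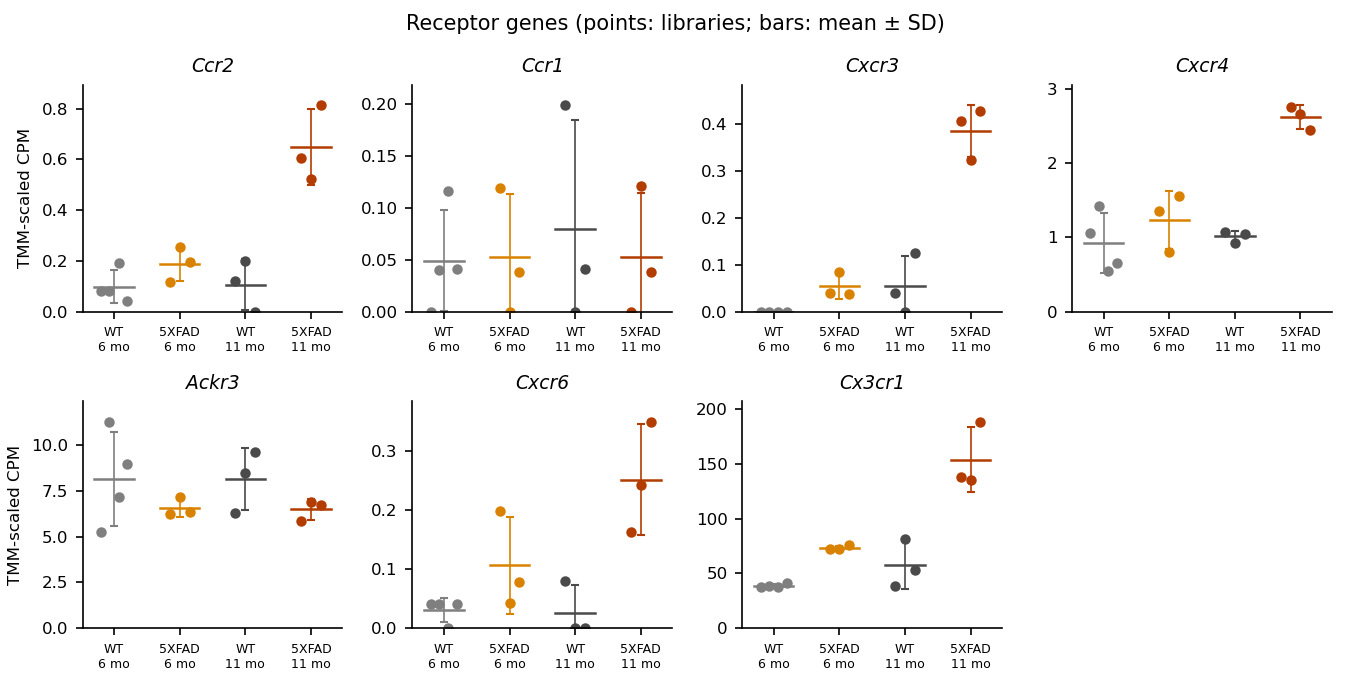
TMM-scaled CPM of 7 receptor genes, 1 panel each with its own vertical axis from 0; points are libraries, horizontal lines group means and vertical bars SD, cut at 0. Ccr2, Cxcr3, Cxcr4 and Cxcr6 have their highest mean in 5XFAD at 11 months, while Ccr1 lies below 0.2 CPM in every library.

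Of 30 other chemokine ligand genes 10 passed the filter. Cxcl5, a Cxcr2 ligand that attracts neutrophils, stood at 0.205, 0.244, 0.155 and 0.0817 CPM in wild type and 0.994, 0.846 and 1.59 CPM in 5XFAD at 6 months, and at 0.478, 0.283 and 0.208 and 2.06, 5.97 and 4.804 CPM at 11 months. It rose with log2 fold changes of 2.71 ± 0.48 (edgeR adjusted p = 0.00815) and 3.70 ± 0.47 (edgeR adjusted p = 0.000211), and the 6-month call was lost without 5XFAD replicate 3 and on the log2(TPM + 1) scale. Cx3cl1 (fractalkine), which neurons present to the microglial receptor Cx3cr1, stood at 693, 754, 726 and 716 CPM in wild type and 634, 610.5 and 581 CPM in 5XFAD at 6 months. The 5XFAD libraries were the lower ones without overlap, and the log2 fold change of -0.25 ± 0.08 did not pass (edgeR adjusted p = 0.290). It fell at 11 months from 724, 663 and 695 CPM to 507, 609 and 513 CPM, a log2 fold change of -0.35 ± 0.09 (edgeR adjusted p = 0.0357), where 0.503% of all genes were lower. That call was lost in 7 of 15 alternatives, with adjusted p values up to 0.248.

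Its receptor Cx3cr1, also 1 of the microglial markers, rose from 38, 38.2, 37.4 and 41.4 CPM to 72.4, 72.1 and 75.7 CPM at 6 months and from 38.8, 81.05 and 53.1 CPM to 138, 135 and 188 CPM at 11 months. On the log2 scale these differences came to 0.92 ± 0.19 (edgeR adjusted p = 0.0348) and 1.42 ± 0.21 (edgeR adjusted p = 0.00111), and the 6-month call was lost in 11 of 16 alternatives, including the removal of any 1 library. These are smaller than the log2 fold changes of Ccl3, Ccl4, Ccl6 and Cxcl16 at the same ages. The differences between genes were not tested.

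Among 8 tested enzymes that cut or shed chemokines 1 rose at both ages, Mmp12, the macrophage elastase. Of all genes 1.3% rose at 6 months and 3.8% at 11 months. Mmp12 passed the low-count filter only through 5XFAD libraries, so this count of 1 carries no weight as a test. It had 0, 1, 0 and 0 counts in wild type and 13, 5 and 7 in 5XFAD at 6 months, and 1, 0 and 0 and 16, 11 and 9 at 11 months (edgeR adjusted p = 0.0164 and 0.00534). With 1 wild-type count at each age, the ratio of depth-scaled counts was 32.2 (95% exact interval 5.27 to 1321) and 34.3 (5.78 to 1394), which covers counting error only. The 6-month call was lost without wild-type replicate 1, 3 or 4 or 5XFAD replicate 1. No adjusted p was given for Mmp12 in 5 of 16 alternatives at 6 months and 4 of 15 at 11 months, among them the stricter filter, the fit of only the groups compared and both log2 TPM scales.

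Of 23 tested genes that act downstream of chemokine receptors, 6 rose at 6 months and 11 at 11 months, against 1.3% and 3.8% of all genes, and none fell. The median log2 fold change was 0.16 and 0.40, against -0.01 and -0.03 for all genes. The 4 with the smallest p at 11 months were Vav1, a guanine nucleotide exchange factor (1.17 ± 0.19 at 6 months and 1.54 ± 0.20 at 11 months), the haematopoietic GTPase Rac2 (1.40 ± 0.21 and 1.62 ± 0.22), its activator Dock2 (1.04 ± 0.22 and 1.66 ± 0.24) and the phosphoinositide kinase subunit Pik3cg (0.90 ± 0.20 and 1.34 ± 0.21). The edgeR adjusted p at 11 months ran from 0.000341 for Vav1 to 0.00115 for Pik3cg. At 6 months the count was 2 or 3 without any 1 library other than wild-type replicate 3, 2 with sex as a covariate and 1 on the log2 TPM scales. The count at 11 months was 7 with only the groups compared and 7 and 6 on the log2(TPM + 1) and log2(TPM + 0.1) scales.

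Of 16 tested genes of NF-kB and related inducible factors, 3 rose at 6 months (1.3% of all genes did), and 3 rose and 1 fell at 11 months (3.8% and 0.503%). The genes of the NF-kB subunits were not among them. Their log2 fold changes at 11 months were 0.15 for Nfkb1, 0.54 for Nfkb2, -0.27 for Rel, 0.25 for Rela and 0.08 for Relb. The edgeR adjusted p values of these subunit genes ran from 0.231 (Nfkb2) to 0.902 (Relb). Atf3, a stress-induced factor, had log2 fold changes of 1.62 ± 0.26 and 2.79 ± 0.29 (edgeR adjusted p = 0.00397 and 3.81e-05). Bcl3, an atypical member of the IkB family of NF-kB regulators, had 1.63 ± 0.36 and 3.25 ± 0.38 (edgeR adjusted p = 0.0435 and 0.000103). Its 6-month call was lost in 11 of 16 alternatives, the removal of any 1 library among them. Spi1, a factor of the myeloid lineage, had 1.39 ± 0.20 and 1.71 ± 0.22 (edgeR adjusted p = 0.00181 and 0.000227). Fosl2, an AP-1 subunit, fell at 11 months (-1.06 ± 0.24, edgeR adjusted p = 0.0229), a call lost in 5 of 15 alternatives.

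Of 26 tested interferon pathway genes, 3 rose at 6 months, where 1.3% of all genes did, and 15 at 11 months, where 3.8% did and Cxcl10, an interferon-induced gene, also rose. The median log2 fold change of the list was 0.37 and 1.04, against -0.01 and -0.03 over all genes. The named 4 were Irf8, a factor of myeloid cells (1.57 ± 0.17 and 2.19 ± 0.18), the interferon receptor subunit Ifnar2 (0.70 ± 0.10 at 11 months), the interferon-induced gene Ifi27l2a (2.42 ± 0.45 and 3.88 ± 0.53) and Irf5 (0.95 ± 0.18 and 1.31 ± 0.19). Their edgeR adjusted p values at 11 months were 0.000616 or smaller. Without 5XFAD replicate 3 of each age the count was 1 at 6 months and 7 at 11 months, and on the log2(TPM + 0.1) scale it was 9 at 11 months.

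For each member that passed in a genotype comparison, the genes with the most similar profile were found by the root mean square difference of log2(CPM + 0.5), centred on wild type at 6 months, over the 13 libraries and 13418 genes. Nearest to Ccl3 were Lilrb4a (0.28) and Lyz2 (0.54), and nearest to Ccl4 were Cd52 (0.26) and Bcl2a1b (0.30). Ccl6 was nearest to Tyrobp (0.29) and Bcl2a1b (0.32). Cxcl16 was nearest to Fcer1g (0.22) and Cybb (0.23), and Cxcl10 to Rab7b (0.32) and Oas1a (0.34). Lilrb4a, for example, had log2 fold changes of 5.13 ± 0.39 at 6 months and 6.36 ± 0.42 at 11 months, while Oas1a had 1.35 ± 0.36 (edgeR adjusted p = 0.107) and 2.93 ± 0.39 (edgeR adjusted p = 0.000342). These are descriptions over the same libraries, and the measure says nothing about control or function.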

How the data were processed

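Illumina libraries were made from total RNA of frontal cortex, per the labels' protocols. The submitters' processing notes name STAR 2.7.1, RSEM and GRCm38; which RSEM version, annotation and strand setting served is not given in the sources used. The deposited values per gene, named expected counts in the file headers, are estimates that share reads among the genes they fit. They were rounded to whole numbers. The deposited TPM served for levels between genes and, in limma 3.58.1, as log2(TPM + 1) or log2(TPM + 0.1). FPKM were not used. All 55536 identifiers matched GENCODE M21.

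Genes passing filterByExpr of edgeR 4.0.16 (minimum count 10, minimum total 15) numbered 17483. Libraries were scaled by TMM, and 1 model with 4 group means was fitted over 13 libraries in R 4.3.3 with the robust quasi-likelihood test; an adjusted p under 0.05 was called. SE is the absolute log2 fold change over the square root of F. The procedure was run on simulated counts with set folds only on genes of higher counts, so members as sparse as Ccl5 and Ccl12 were not covered. No 2 libraries were alike within sampling noise (smallest chi-square per gene 6.1 over 78 pairs). The log2 ratio to microglial markers used CPM + 0.05.

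Alternatives were DESeq2 1.42.0, RLE scaling, no filter or at least 1 CPM in 3 libraries, only the groups compared, a non-robust fit, sex as a covariate, the TPM scales and leaving out each library. Named genes were the members; from the lists, genes past the threshold in a genotype comparison (for the signalling, NF-kB and interferon lists the 4 with the smallest p at 11 months); the receptors Ccr1, Ccr2, Cxcr3, Cxcr4, Cxcr6 and Ackr3; genes of the Ccl clusters reaching 1 CPM; and the 2 genes most like each called member. T and NK cell, monocyte, border macrophage, neutrophil and astrocyte markers, the NF-kB subunit genes, E230016K23Rik and Rpl9-ps1 were named after their values were seen. A gene that the rule names is not reported here. The members and lists were chosen with earlier results of these data known.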

Additional observations from a re-analysis of the deposited data

Results flagged for a closer look

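In groups of 4 libraries, a library was singled out where its gap to the nearest other library exceeded Dixon's critical share of the group's range. Only wild type at 6 months has 4 libraries, so only that group could be examined, and 6 of 29 values were singled out. Chance does so in about 1 of 20 where values are continuous and normally distributed. Tied small counts, as of Ccl2 and Cxcr6, give a gap near the whole range by themselves. The number singled out therefore cannot be set against that share. Ccl9 was lowest in replicate 4 (1.14 CPM, against 1.55 to 1.63 CPM in the others), a gap of 0.847 of the range. Ccl2 and Cxcr6 were at 0 counts in 1 library each, giving 0.947 for Ccl2 and 0.992 for Cxcr6, where the others held 1 or 2 counts. The marker sums of 3 tissues were highest in 1 library: choroid plexus (2983 CPM against at most 38.3 CPM, 0.992), meninges and fibroblasts (76.8 against 31.4 CPM, 0.879) and oligodendrocytes (13920 against 6726 CPM, 0.974).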

How the results depend on the processing

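The calls of Ccl3, Ccl4, Ccl6 and Cxcl16 at both ages and of Cxcl10 at 11 months were kept in all alternatives run. Without any 1 library, 134 to 205 genes were called at 6 months, 424 to 840 at 11 months, 0 to 1921 between ages in wild type, 97 to 798 between ages in 5XFAD and 1 to 3 in the interaction, and the members called numbered 4 to 4, 5 to 6, 0 to 0, 0 to 0 and 0 to 0. With DESeq2, 381 genes were called at 6 months, 1845 between ages in wild type, 2062 between ages in 5XFAD (4 members) and 30 in the interaction. With only the groups compared the counts were 443 at 11 months, 1 between ages in wild type and 2610 in 5XFAD. The log2(TPM + 1) and log2(TPM + 0.1) scales gave 291 and 290 between ages in wild type and 742 and 649 (the latter with 0 members) in 5XFAD. Sex as a covariate gave 345 between ages in wild type and 0 members in 5XFAD. The cause of these differences was not tested.

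Signs changed in log2 values that had not passed the threshold. At 6 months Ccl5 was -0.00042 and -0.16 on the TPM scales and -1.28 to 0.98 without any 1 library (below 0 without 5XFAD replicate 2). Between ages in wild type, Ccl4 ran from -1.17 to 0.341, Ccl6 from -0.034 to 0.364 and Ccl9 from -0.23 to 0.063 without any 1 library, and Ccl9 was 0.0092 with sex as a covariate. Between ages in 5XFAD, Ccl5 ran from -0.035 to 2.21 and was -0.0356 with sex as a covariate, Ccl12 ran from -0.043 to 1.31, and Ccl9 was 0.388 and 0.501 on the TPM scales. In the interaction Ccl9 ran from -0.41 to 0.0195 and was 0.603 and 0.916 on the TPM scales, Cxcl12 ran from -0.0197 to 0.327, and Ccl3 was -0.22 with sex as a covariate. Relative to microglial markers at 6 months, Ccl2 ran from -0.229 to 0.4 and Ccl12 from -0.658 to 0.443, and with 4 markers in place of 14 they were -0.0223 and -0.133.

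No paired analysis was possible because each library carries its own number in the titles and the replicate numbers used here follow accession order. Depth limits Ccl2, Ccl3, Ccl4, Ccl5, Ccl12, Cxcl10, Ccr1, Cxcr3 and Cxcr6, whose counts in wild type were few.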
